A study of Mus musculus with 2 samples.

Results

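Interleukin-6 family cytokines, their receptor subunits and the feedback inhibitor Socs3 were followed in primary mouse chondrocytes with and without knockdown of Gpx4. The 10 genes are the cytokines Il6, Lif, Il11 and Clcf1, the receptor subunits Il6st, Il6ra, Lifr, Osmr and Il11ra1, and Socs3. They were taken by symbol from a list, and all 10 were found among the 21878 genes of the expression tables. The genes were chosen by family membership with their FPKM in both libraries and the ratio between them already known, so all these values are a description and carry no test.

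The shGpx4 culture carried a lentiviral short hairpin RNA against Gpx4 (labelled GPX4 knockdown), and the shNC culture carried a control hairpin (labelled control). Both were C57BL/6 chondrocytes treated with lentivirus and grown in DMEM with 10% fetal bovine serum, at 5% CO2 and 37 °C. Each group is 1 library of 1 culture, and the labels name no separate animals, ages or times after infection. With no replicate, the spread between cultures is unknown and no p-value was computed. Gpx4 encodes the selenoprotein that reduces lipid hydroperoxides, and the design text gives the aim as learning how it acts.

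Cytokines of this family signal through receptor complexes that share the subunit encoded by Il6st. Ligand-specific subunits (Il6ra, Il11ra1) bind the cytokine without signalling themselves, whereas Lifr and Osmr pair with Il6st and signal with it. The complexes activate JAK kinases and the transcription factor STAT3, and STAT3 induces Socs3, whose protein binds Il6st and the JAKs and shuts the signal off. In joint tissue the family is known for driving acute-phase and matrix-degrading gene programmes.

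Levels are FPKM, reads scaled to gene length and to the total of the library. Comparisons between genes therefore also rest on the gene lengths used by the authors, which are not known here. The libraries held 21313211 reads in shGpx4 and 19729142 reads in shNC, as worked out from the steps between FPKM values. A log2 ratio compares FPKM + 1 in the shGpx4 library with FPKM + 1 in the shNC library, which understates differences of weakly expressed genes, and a gene is called measured when its mean over both libraries is at least 1 FPKM. An FPKM ratio has no pseudocount, and its exact 95% interval covers only the error of counting reads. The knockdown target Gpx4 was at 96.2 FPKM in shGpx4 and 161 FPKM in shNC, which leaves 59.9% of the shNC level (counting interval 56.9% to 63.0%).

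Chondrocyte markers were present in part. Of 20 markers 10 were measured. Col2a1 and Lect1 were past 1.5-fold on the higher side in shGpx4 and Cilp on the lower side. Over all measured genes 2.99% were higher by that rule and 1.96% were lower, and nothing is read from the marker counts. The cartilage transcription factor gene Sox9 was at 18.2 FPKM in shGpx4 and 21.8 FPKM in shNC, Col2a1 at 58.4 and 8.96 FPKM, Col11a1 at 41.6 and 47.0 FPKM and Hapln1 at 8.46 and 7.52 FPKM, in the same order. Also measured were Comp (1421 FPKM in shGpx4 and 1666 FPKM in shNC), Lect1 (269.95 and 124 FPKM, in the same order) and Prg4 (203 and 135 FPKM). Acan was at 0.0061 FPKM in shGpx4 and listed at 0 in shNC, and in both libraries Matn1 and Epyc were at 0. Fibroblast and synovial markers were abundant, with 10 of 11 measured and a summed level of 7070 FPKM in shGpx4 and 4756 FPKM in shNC. The labels' name for the cells, chondrocyte, is kept here.

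Of the 10 genes, 9 were measured, and Il11 was not. With a limit of 1.5-fold on the (FPKM + 1) scale, 3 of the 9 were higher in shGpx4 (Socs3, Il6 and Lif), 1 was lower (Il11ra1) and 5 lay between. Among all 10997 measured genes, 2.99% were higher by that rule and 1.96% were lower. The median log2 ratio of the 9 genes was 0.40, beside -0.04 over all measured genes. Il6 and Lif were under 1 FPKM in shNC and passed the minimum mean only through shGpx4, where they were higher. For that reason, and because the genes were listed with this contrast known, nothing is read from these shares.

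**Figure D1:**
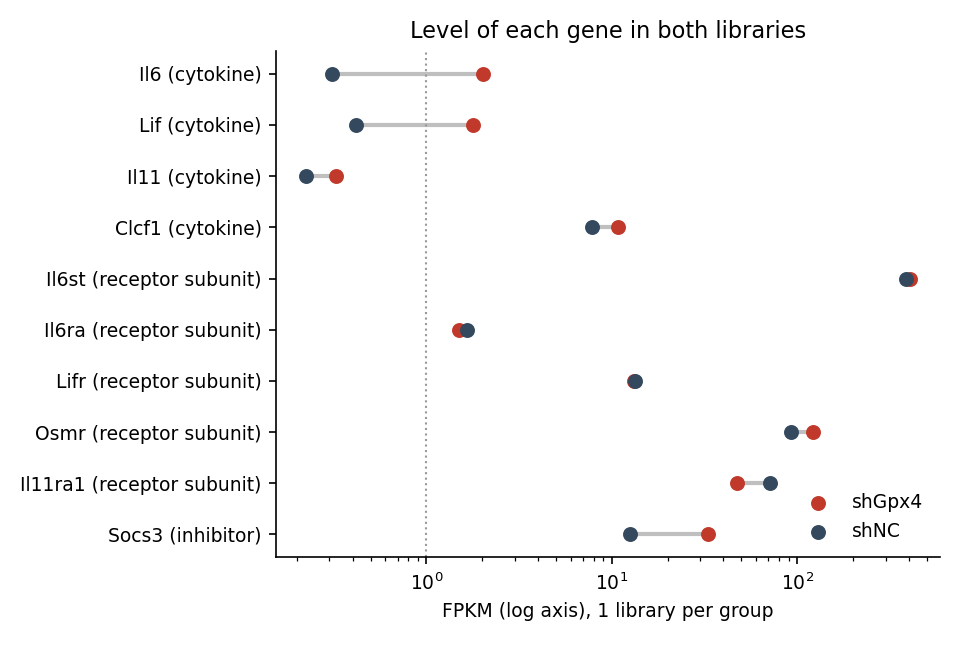
FPKM (log axis) of each of the 10 genes in the shGpx4 library (red) and the shNC library (dark blue), 1 point per library, with a grey line joining the pair and a dotted line at 1 FPKM. Il6, Lif and Socs3 have the widest gaps, and Il6st lies highest in both libraries, at 404 and 387 FPKM.

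**Figure D2:**
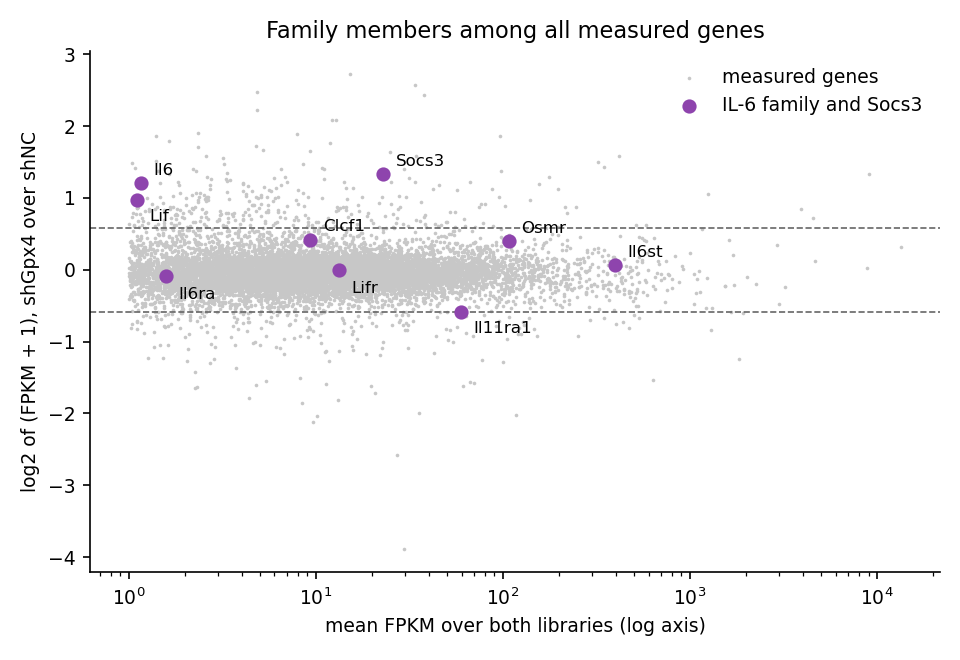
Log2 ratio of (FPKM + 1), shGpx4 over shNC, against the mean FPKM of both libraries (log axis) for the 10997 measured genes (grey) and the 9 measured family genes (purple), with dashed lines at 1.5-fold. Socs3 (1.33), Il6 (1.20) and Lif (0.97) lie above the upper line, and Il11ra1 (-0.59) lies at the lower one.

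Il6, Lif and Il11 averaged under 2 FPKM over both libraries, and Clcf1 was more abundant. Il6, the founding member, which acts on cells with Il6ra or through soluble receptor, was at 2.01 FPKM in shGpx4 and 0.311 FPKM in shNC, a log2 ratio of 1.20. Its FPKM ratio was 6.48, or 2.70 on the log2 scale. On the (FPKM + 1) scale 59 of the 10997 measured genes had a higher log2 ratio. Il6 counts as measured only through its level in shGpx4, so this place is partly set by the filter and nothing is read from it.

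How firmly counting error bounds the Il6 ratio depends on the gene length behind its FPKM. The smallest whole reads that give both values are 7 in shGpx4 and 1 in shNC, at a length of 163 bases, and the interval from these, -0.26 to 8.19 on the log2 scale, holds 0. At 2 times these reads (14 and 2), which corresponds to a length of 326 bases, the interval already lies above 0, at 0.57 to 5.88. All 4 Il6 transcripts in GENCODE vM21 are longer, the shortest at 651 bases. The RefSeq transcript that the table cites for Il6 is 1141 bases long there, which is exactly 7 times 163, and at that length the reads were 49 in shGpx4 and 7 in shNC and the FPKM ratio had an interval of 2.92 to 17.0. Such an exact multiple was found for 8.90% of 8780 genes that could be compared, so the length used by the authors is not established by it. For Lif, Il11, Clcf1, Il6st, Il6ra and Il11ra1 the cited transcript was not a whole multiple of the smallest length.

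Lif, leukaemia inhibitory factor, which signals through Lifr and Il6st, was at 1.79 FPKM in shGpx4 and 0.419 FPKM in shNC (log2 ratio 0.97). The FPKM ratio was 4.27, and 83 and 18 reads at the least gave it a counting interval of 2.54 to 7.55. Lif was at 0.887 times the level of Il6 in shGpx4 and at 1.35 times in shNC. The order in shNC rests on at least 1 read of Il6 and at least 18 of Lif, and on the gene lengths used. Whether the order differs between the libraries beyond counting error was not tested.

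Clcf1, a ligand that acts through Lifr and Il6st with Cntfr, was the most abundant of the cytokines in both libraries. It was at 10.8 FPKM in shGpx4 and 7.85 FPKM in shNC (log2 ratio 0.42), and its FPKM ratio of 1.38 had a counting interval of 1.12 to 1.69. Clcf1 made up 72.4% of the summed FPKM of the cytokines in shGpx4 and 89.1% in shNC, while Il6 made up 13.5% in shGpx4 and 3.53% in shNC. Il11, which acts through Il11ra1 and Il6st, was at 0.325 FPKM in shGpx4 and 0.226 FPKM in shNC, from at least 14 and 9 reads. Its difference was not detectable at this depth, since the interval of the FPKM ratio, 0.581 to 3.77, holds 1.

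Socs3 had the highest log2 ratio of the 10 genes on the (FPKM + 1) scale, whereas Il6 and Lif had the higher FPKM ratios. It was at 33.2 FPKM in shGpx4 and 12.6 FPKM in shNC (log2 ratio 1.33), and only 39 measured genes had a higher one. The FPKM ratio was 2.64, with a counting interval of 1.76 to 4.05 that rests on the smallest reads giving these values, 94 and 33, and would be narrower with a multiple of them. In the order of all genes by level, Socs3 stood at place 1911 in shGpx4 and at place 4758 in shNC.

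The receptor subunits spanned a wide range of levels and differed less between the libraries. Il6st was at 404 FPKM in shGpx4 and 387 FPKM in shNC, places 110 and 127 of all genes, with a log2 ratio of 0.06. Its FPKM ratio of 1.04 rested on 46952 and 41647 reads at the least, with an interval of 1.03 to 1.06. That interval leaves out the choice of scaling between libraries. With 75th percentile scaling the log2 ratio of Il6st was 0.11. Osmr, the signalling subunit for oncostatin M, was at 122 FPKM in shGpx4 and 92.7 FPKM in shNC (log2 ratio 0.40), and its FPKM ratio of 1.32 had an interval of 1.29 to 1.35. Lifr was at 13.2 FPKM in shGpx4 and 13.3 FPKM in shNC, with an FPKM ratio of 0.995 and an interval of 0.945 to 1.05 that holds 1.

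The ligand-specific subunits stood far apart. Il6ra was at 1.501 FPKM in shGpx4 and 1.67 FPKM in shNC, and its FPKM ratio of 0.901 had an interval of 0.685 to 1.18 that holds 1. Il6st was thus 269 times the level of Il6ra in shGpx4 and 232 times in shNC. Il11ra1 was at 47.2 FPKM in shGpx4 and 71.4 FPKM in shNC (log2 ratio -0.59), and its FPKM ratio of 0.660 had an interval of 0.623 to 0.6999. It lay just past the 1.5-fold limit of 0.58 and no longer did when the libraries were rescaled to a common median, where its ratio lay within the limit and no gene of the 10 counted as lower. The nearly identical copy Il11ra2, which can share reads with Il11ra1, was at 0.206 FPKM in shGpx4 and 0.167 FPKM in shNC.

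Il6st made up 68.7% of the summed FPKM of the 5 receptor subunits in shGpx4 and 68.4% in shNC. Osmr took 20.8% in shGpx4 and 16.4% in shNC, and Il11ra1 took 8.01% in shGpx4 and 12.6% in shNC. Osmr was 9.27 times the level of Lifr in shGpx4 and 6.98 times in shNC. From highest to lowest the 10 genes ran Il6st, Osmr, Il11ra1, Socs3, Lifr, Clcf1, Il6, Lif, Il6ra and Il11 in shGpx4. In shNC they ran Il6st, Osmr, Il11ra1, Lifr, Socs3, Clcf1, Il6ra, Lif, Il6 and Il11. Whether neighbours in either order differ beyond the spread between cultures was not measured, and counting error between genes was not tested.

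**Figure D3:**
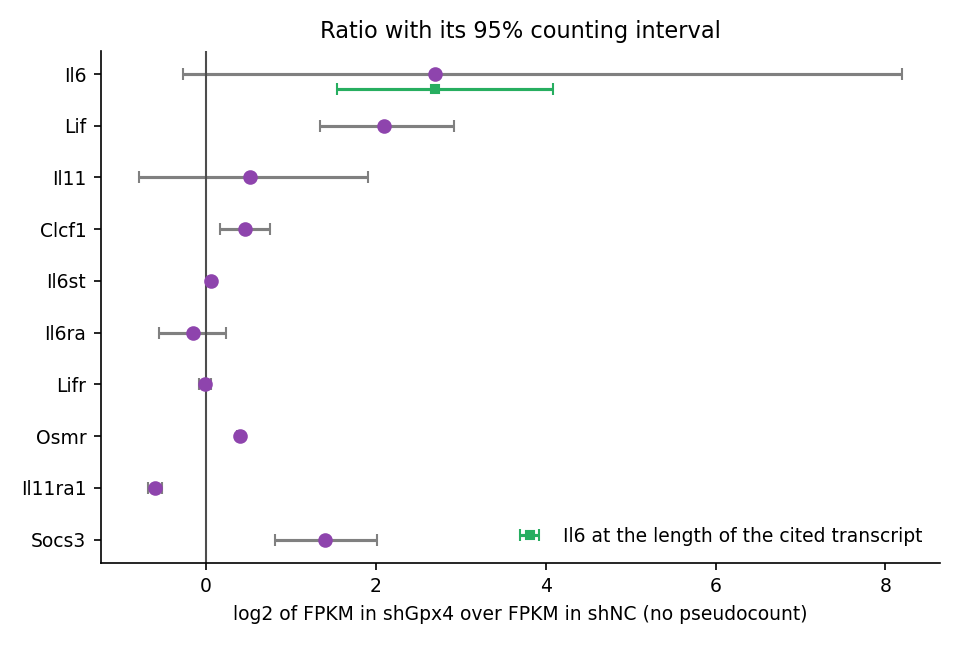
Log2 of the FPKM ratio without pseudocount, shGpx4 over shNC, for each of the 10 genes (purple points) with exact 95% counting intervals from the smallest reads (grey bars), and for Il6 also at the length of the cited transcript (green). The intervals of Lif, Clcf1, Il6st, Osmr and Socs3 lie above 0, that of Il11ra1 lies below 0, and those of Il6 (smallest reads), Il11, Il6ra and Lifr hold 0.

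Counting intervals that exclude 0 were common at this depth. From the smallest reads, 5 of the 9 measured family genes had an interval above 0 and 1 had an interval below 0. The interval of Il11, which was not measured, held 0. Among all measured genes 18.1% had an interval above 0 and 27.3% had one below 0.

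The start regions of the genes past the size rule in the upward direction are printed here because these genes were higher together. RefSeq windows on GRCm38.p6, from 250 bases before to 50 bases after a start site, were found for 9 of the 10 genes (12 windows, since some have more than 1 start). They were searched on both strands for STAT (TTCNNNGAA), AP-1 (TGANTCA), NF-kB (GGGANTTTC), C/EBP (TTNNGNAA) and cyclic AMP response element (TGACGTCA) letters, with N for any base and no motif overlapping another in the windows printed. Sequences run 5′ to 3′ in the direction of transcription, and capitals mark the matches. Socs3 lies on the minus strand at chr11:117969317-117969616, and Il6 (chr5:30012864-30013163) and Lif (chr11:4257318-4257617) lie on the plus strand.
Socs3: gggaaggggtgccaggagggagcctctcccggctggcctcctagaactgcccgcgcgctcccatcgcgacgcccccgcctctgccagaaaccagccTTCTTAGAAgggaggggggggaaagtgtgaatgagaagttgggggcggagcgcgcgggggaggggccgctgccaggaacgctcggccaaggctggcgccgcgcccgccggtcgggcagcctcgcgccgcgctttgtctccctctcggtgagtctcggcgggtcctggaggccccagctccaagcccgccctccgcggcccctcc
Il6: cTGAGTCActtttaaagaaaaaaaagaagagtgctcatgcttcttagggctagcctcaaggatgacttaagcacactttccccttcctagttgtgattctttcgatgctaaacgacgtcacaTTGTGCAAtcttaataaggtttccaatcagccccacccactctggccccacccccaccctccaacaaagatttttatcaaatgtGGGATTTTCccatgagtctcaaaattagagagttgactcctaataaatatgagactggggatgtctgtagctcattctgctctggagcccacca
Lif: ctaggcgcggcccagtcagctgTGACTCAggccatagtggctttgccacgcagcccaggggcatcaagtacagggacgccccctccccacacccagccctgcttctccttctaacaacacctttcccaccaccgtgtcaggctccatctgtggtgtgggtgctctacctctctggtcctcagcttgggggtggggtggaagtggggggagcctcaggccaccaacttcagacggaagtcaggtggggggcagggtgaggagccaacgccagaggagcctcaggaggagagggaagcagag

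In the Socs3 window the match was the STAT letters TTCTTAGAA, which begin 154 bases before the start site of that window. RefSeq places the upstream end of Socs3 at 117970336, outside this window, and the stretch before that end was not searched. The Il6 window held AP-1 letters 249 bases before the start, C/EBP letters at 128 and NF-kB letters at 44, and the Lif window held AP-1 letters at 228. Over all 32851 windows of the table, 8.30% held the STAT letters, 7.81% the AP-1 letters, 1.11% the NF-kB letters, 40.7% the C/EBP letters and 1.79% the cyclic AMP response element. Of the 9 genes, 1 held the STAT letters (Socs3), 4 the AP-1 letters (Il6, Lif, Il11 and Osmr), 1 the NF-kB letters, 2 the C/EBP letters (Il6 and Il6ra) and none the cyclic AMP response element. These counts are by gene over 12 windows, whereas the shares above are by window, so the units are unlike. A match is a stretch of letters and was not tested as a binding site.

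The nearest measured genes beside the cytokines and Socs3 on the chromosome had log2 ratios between -0.52 and 0.29. Il6 lies on chromosome 5 from 30013114 to 30019975, and its nearest measured neighbours, Dnajb6 and Tyms, had log2 ratios of -0.06 and 0.27. Beside Lif on chromosome 11 (4257568 to 4272514) Gatsl3 had 0.11 and Mtmr3 had -0.14. Osm, the oncostatin M gene, lies 16541 bases from Lif and was listed at 0 in both libraries, where 3 reads at the length of its cited transcript would give 0.062 FPKM in shGpx4 and 0.067 FPKM in shNC. Socs3 lies on chromosome 11 from 117966079 to 117970336, and its neighbours Tha1 and Pgs1 had ratios of -0.44 and 0.29. Beside Clcf1 on chromosome 19, Rad9a had a ratio of -0.05 and Pold4 of -0.23. The neighbours of Il11 on chromosome 7 were Cox6b2 (0.16) and Tmem238 (-0.52).

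Osmr and Lifr lie 215641 bases apart on chromosome 15 and had log2 ratios of 0.40 and -0.01. Long noncoding genes overlap Il6, Clcf1 and Il6ra in RefSeq and are not analysed here. Whether their reads could have been assigned to these genes was not tested, because the strand setting used by the authors is not given in the sources used here.

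By distance between log2 (FPKM + 1) values over the 2 libraries, the genes most like each member past the size rule were as follows. Tnfsf11, which encodes the osteoclast differentiation factor RANKL, lay nearest to Il6, at 2.02 FPKM in shGpx4 and 0.340 FPKM in shNC (distance 0.032), followed by Iqgap2 (0.055). Slc22a23 (0.081) and Crct1 (0.088) lay nearest to Lif, and Itga3 (0.23) and D17H6S56E-5 (0.23) to Socs3. For Il11ra1 they were Tns3 (0.13) and Phpt1 (0.14).

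Other ligands and receptors of the family were mostly below 1 FPKM. Of 11 further genes 2 were measured, none was past 1.5-fold in either direction, and 5 were listed at 0 in both libraries (Osm, Ctf2, Il27, Ebi3 and Il31). Over all measured genes 2.99% were higher by the 1.5-fold rule and 1.96% were lower. The ciliary neurotrophic factor gene Cntf was at 3.54 FPKM in shGpx4 and 4.63 FPKM in shNC, with a counting interval of the FPKM ratio of -0.80 to 0.03 on the log2 scale. Cardiotrophin 1 (Ctf1) was at 9.88 FPKM in shGpx4 and 10.6 FPKM in shNC. Cntfr, the ligand-specific subunit for Cntf and Clcf1, was at 0.0055 FPKM in shGpx4 and 0.012 FPKM in shNC, from at least 1 and 2 reads.

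Kinases, STATs and adaptors had 15 of 16 genes measured, none past 1.5-fold in either direction, and a median log2 ratio of 0.06. Over all measured genes 2.99% were higher by that rule and 1.96% were lower, so nothing is read from this count. Jak1, the main kinase bound to Il6st, was at 109 FPKM in shGpx4 and 86.2 FPKM in shNC (0.34), and Stat3 was at 74.4 FPKM in shGpx4 and 61.6 FPKM in shNC (0.27). The docking adaptors Irs1 (-0.44) and Gab1 (-0.27) were lower, with counting intervals below 0.

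Inhibitors of JAK-STAT signalling other than Socs3 also lay within 1.5-fold where measured. Of 15 genes 12 were measured, with a median log2 ratio of 0.04. The shares past the rule over all measured genes were 2.99% higher and 1.96% lower, so nothing is read from none being past it. The tyrosine phosphatase genes Ptpn2 (6.57 FPKM in shGpx4 and 4.93 FPKM in shNC, 0.35) and Ptpn1 (24.3 and 19.2 FPKM in the same order, 0.33) had the largest ratios, followed by Socs5 (0.16) and Socs7 (0.15). Socs1, the closest relative of Socs3 in action, was at 4.55 FPKM in shGpx4 and 5.03 FPKM in shNC, with an interval of -0.50 to 0.22. Cish, another SOCS family gene, lay under the minimum level at 0.503 FPKM in shGpx4 and 0.189 FPKM in shNC, with a counting interval of the FPKM ratio of 0.56 to 2.33 on the log2 scale.

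Genes that STAT3 is known to induce were higher in part. Of 30 such genes 26 were measured, 7 were at least 1.5-fold higher in shGpx4 and none was lower, with 22 ratios above 0 and 4 below. Over all measured genes 2.99% were higher by this rule and 1.96% were lower. The median was 0.30 in the list and -0.04 over all measured genes. Earlier results for some of these genes were known when the list was made, so nothing is read from these counts. Serpina3n, an acute-phase protease inhibitor, was at 479 FPKM in shGpx4 and 169 FPKM in shNC (1.5). Steap4, a metalloreductase, was at 508 FPKM in shGpx4 and 187 FPKM in shNC (1.43). Lrg1, a secreted acute-phase glycoprotein, was at 8.15 FPKM in shGpx4 and 3.30 FPKM in shNC (1.09). Timp1, the inhibitor of matrix metalloproteinases, was at 1679 FPKM in shGpx4 and 810.3 FPKM in shNC (1.05).

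The other 3 past the rule were transcription regulators. Cebpd was at 133 FPKM in shGpx4 and 71.2 FPKM in shNC (0.89), Bcl3 at 29.6 FPKM in shGpx4 and 17.2 FPKM in shNC (0.75), and Junb at 85.0 FPKM in shGpx4 and 56.1 FPKM in shNC (0.59). Acute-phase genes with the highest levels lay inside the limits. Saa3, a serum amyloid A gene, was at 4839 FPKM in shGpx4 and 4459 FPKM in shNC (0.12), and Lcn2, the lipocalin that binds bacterial siderophores, was at 3268 FPKM in shGpx4 and 2564 FPKM in shNC (0.35). The 4 ratios below 0 were those of Icam1 (-0.14), Vegfa (-0.13), Klf4 (-0.06) and Bcl6 (-0.02).

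**Figure D4:**
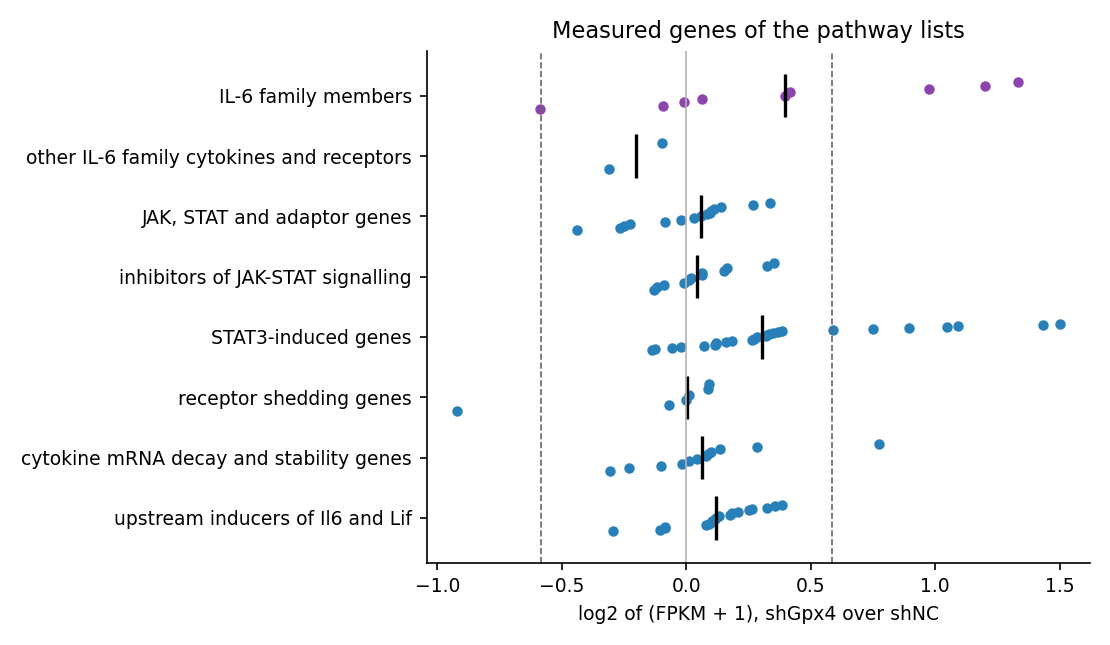
Log2 ratio of (FPKM + 1), shGpx4 over shNC, of each measured gene of the IL-6 family (purple) and of the 7 pathway lists (blue), with a black line at each median and dashed lines at 1.5-fold; the vertical offset within a list only separates points. The 7 genes right of the upper limit among STAT3-induced genes run from Junb (0.59) to Serpina3n (1.5), and Timp3 (-0.92) stands apart at the left.

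Receptor shedding and messenger RNA stability genes had 1 member each past the rule. Over all measured genes 2.99% were higher by that rule and 1.96% were lower. Of 6 genes linked to the release of soluble receptors, the protease genes Adam17 (27.4 FPKM in shGpx4 and 25.7 FPKM in shNC, 0.09) and Adam10 (43.4 and 43.5 FPKM in the same order) differed little. Timp3, an inhibitor of Adam17, was lower, at 174 FPKM in shGpx4 and 330.3 FPKM in shNC (-0.92). Of 12 genes acting on cytokine messenger RNA, 1 was at least 1.5-fold higher. It was Arid5a, which stabilizes Il6 messenger RNA, at 4.20 FPKM in shGpx4 and 2.04 FPKM in shNC (0.77). Zc3h12a, the nuclease that degrades Il6 messenger RNA, was at 19.9 FPKM in shGpx4 and 19.7 FPKM in shNC (0.01).

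On the (FPKM + 1) scale, inducers and transcription factors upstream of Il6 and Lif lay within 1.5-fold where measured. Of 22 genes 19 were measured, with 15 ratios above 0, 4 below and a median of 0.12, beside -0.04 over all measured genes. By the 1.5-fold rule 2.99% of all measured genes were higher and 1.96% were lower, so nothing is read from these counts. Il1a and Il1b were listed at 0 in both libraries, and Tnf was at 0.028 FPKM in shGpx4 and 0.031 FPKM in shNC, from at least 1 read each. Crem (0.39), Fosl1 (0.36) and Fos (0.32) had the highest ratios. Crem was at 1.92 FPKM in shGpx4 and 1.23 FPKM in shNC. The counting interval of its FPKM ratio, 0.35 to 0.93 on the log2 scale, holds the 1.5-fold limit of 0.58. Nfkbia, the NF-kB inhibitor that NF-kB itself induces, was lower (57.3 FPKM in shGpx4 and 70.6 FPKM in shNC, -0.30).

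Markers of other cell types that make or answer these cytokines differed in several directions. Macrophage and leukocyte markers had 4 of 20 measured, and a summed level of 29.1 FPKM in shGpx4 and 33.6 FPKM in shNC. Ptprc, Fcgr1, Aif1, S100a9, Cd3e and Cd79a were listed at 0 in both libraries, and the 4 measured markers went both ways. Lyz2 was at 1.86 FPKM in shGpx4 and 7.67 FPKM in shNC and H2-Ab1 at 5.35 FPKM in shGpx4 and 11.1 FPKM in shNC, whereas Cd14 was at 17.1 FPKM in shGpx4 and 9.19 FPKM in shNC and Cd68 at 3.80 FPKM in shGpx4 and 3.90 FPKM in shNC. Among the fibroblast and synovial markers 3 were at least 1.5-fold higher in shGpx4 and 1 was lower. Over all measured genes 2.99% were higher by that rule and 1.96% were lower, and nothing is read from the marker counts. Thy1 (0.59) and Pdpn (0.61) lay close to the limit of 0.58. Most of the difference in the sum of these markers came from Dcn, at 5042 FPKM in shGpx4 and 2808 FPKM in shNC. Dpt went the other way, at 58.1 FPKM in shGpx4 and 143 FPKM in shNC. Endothelial markers had 1 of 9 measured (Eng) and a summed level of 6.73 FPKM in shGpx4 and 3.34 FPKM in shNC. Nearly all of that sum was Eng, at 6.67 FPKM in shGpx4 and 3.22 FPKM in shNC. The others were at or near 0, with Cdh5, Tie1 and Cldn5 at 0 in both. Osteoblast and osteocyte markers summed to 11.0 FPKM in shGpx4 and 22.5 FPKM in shNC (4 of 8 measured, Sost at 0 in both). Smooth muscle and pericyte markers summed to 69.8 FPKM in shGpx4 and 106 FPKM in shNC (4 of 6 measured), a difference carried by Acta2 (44.4 FPKM in shGpx4 and 82.3 FPKM in shNC), while Rgs5 (19.5 and 18.2 FPKM in the same order) and Cspg4 (4.77 and 3.90 FPKM) were slightly higher. Adipocyte markers summed to 5.68 FPKM in shGpx4 and 7.99 FPKM in shNC (3 of 6 measured, Lep at 0 in both). In bulk RNA, fewer cells of a type and less RNA per cell cannot be told apart, and the part of cell composition in the values of Il6, Lif and Socs3 was not tested.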

How the data were processed

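Poly(A) RNA of 1 shGpx4 and 1 shNC culture was sequenced, and groups follow the treatment in the labels. The authors deposited 1 FPKM table per library, and the submitters' processing notes name Trimmomatic, HISAT2, Cufflinks and GRCm38, without versions or settings. The unit is read from the values and from Cufflinks, as the headers carry just a sample name.

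The smallest whole reads and length that give both FPKM values were solved from library totals found in the steps between low values, for all 15153 genes above 0, within 6.4e-10 of a whole read. Exact Clopper-Pearson 95% intervals of the ratio come from these reads, which are the true reads or a divisor of them, and cover counting error only, since reads of an amplified library are not independent molecules. No value was rescaled between libraries, and no test was possible with 1 library per group. The computation was tested on simulated data. Locations and start windows are from RefSeq GRCm38.p6 and transcript lengths from GENCODE vM21. Entrez numbers gave back 27 symbols that a spreadsheet format had stored as dates. The tools were matplotlib 3.10.9, pandas 2.3.3, scipy 1.17.1 and numpy 2.4.6 under Python 3.11.15.

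The members and gene lists were chosen with earlier results of these data known. Named genes are the 10 members, Gpx4, up to 4 measured genes of each pathway list with the largest absolute ratio, the 2 genes nearest in pattern, and chromosome neighbours. One gene of the lists is not reported here. Other genes of the lists and the markers given by value were named after their values were seen. Alternatives were a pseudocount of 0.1, 4 rescalings, a minimum mean of 5 FPKM, no filter, and recovered reads with 0.5 added. Reads of Il6 at its cited transcript length were added after seeing the data.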

Additional observations from a re-analysis of the deposited data

How the results depend on the processing

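No paired analysis was possible because each group has 1 library, and for the same reason no replicate could be left out. The count of family genes at least 1.5-fold higher was 3, and with a minimum mean of 5 FPKM it was 1, since Il6 and Lif were then no longer counted. The count at least 1.5-fold lower was 1 (Il11ra1), and it was 0 with the median set to 0, with 75th percentile scaling and with the trimmed mean of log ratios. The family median of 0.40 was 0.23 with a minimum mean of 5 FPKM and 0.26 with no filter. Across the other settings Il6 ranged from 1.20 to 2.61, Lif from 0.97 to 2.06 and Socs3 from 1.33 to 1.39, all past the limit. Lifr was the member whose sign varied, from -0.01 to 0.04. With 75th percentile scaling the log2 ratio of Il6st was 0.11 and that of Osmr was 0.45. Both lay outside their counting intervals, 0.04 to 0.08 and 0.37 to 0.44 on the log2 scale, which do not cover the scaling. No gene past the size rule took the other sign, but these settings could hardly have produced that. A pseudocount or a filter leaves the sign of a ratio as it is. Under the rescalings the median over all measured genes lay between -0.04 and 0.003, so nothing is read from the kept signs. Socs3 had the highest ratio with a pseudocount of 1, while with a pseudocount of 0.1 Il6 (2.36) and Lif (1.86) were above Socs3 (1.39), as they were with recovered reads (2.21, 2.06 and 1.38 in the same order). Over all measured genes the counts were 329 higher and 216 lower, against 438 and 359 with a pseudocount of 0.1, 449 and 384 with recovered reads, and 166 and 138 with a minimum mean of 5 FPKM. Over the pathway lists the count at least 1.5-fold higher was 8. It was 9 with a pseudocount of 0.1 and with recovered reads, and 7 with a minimum mean of 5 FPKM. Depth limits Il6 and Il11 among the 10 genes, with at least 1 and 9 reads in shNC. The 1 read of Il6 rests on a length of 163 bases, shorter than all its GENCODE vM21 transcripts. Its true count depends on the length used, and was 7 at the length of the cited transcript.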

Other observations

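Below 1 FPKM, and named after its values were seen, another gene downstream of JAK-STAT signalling differed by more than counting error. The acute-phase protease inhibitor gene A2m was at 0.143 FPKM in shGpx4 and 0.032 FPKM in shNC, from at least 19 and 4 reads, with a counting interval of the FPKM ratio of 0.55 to 4.15 on the log2 scale. The fibrinogen genes, acute-phase genes of the liver, were at or near 0, with Fgg listed at 0 in both libraries, Fga at 0.011 FPKM in shGpx4 and 0 in shNC, and Fgb at 0 in shGpx4 and 0.059 FPKM in shNC.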
